A study of Mus musculus with 34 samples.

Results

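The collagen genes were taken as the rows of the deposited RPKM table whose symbol has the form Col, a number, the letter a and a number. That gave 44 of 52636 genes. By the protein they encode they were read as 8 fibrillar, 9 basement membrane and 7 cartilage collagens and 20 others. Types II and XI, which also form fibrils, were counted with the cartilage class and not the fibrillar one. RNA was sequenced from embryonic stem cells (ESCs) of the mouse line F1(G4), whose strain is given as 129S2/C57Bl6J. They were either wild type or Hdn mutant. The titles also call the mutant cells Hdn null, where Hdn is the long non-coding RNA Handsdown, listed as 5033428I22Rik. Both genotypes were sampled undifferentiated and on days 3, 4, 5 and 6 of differentiation, which gave 10 groups of 3 libraries. Per the labels, ESCs were freed of feeder cells by serial plating and kept in 2i medium, then formed aggregates in hanging drops of serum medium. These were moved to fibronectin-coated dishes without serum and given BMP4, a growth factor that drives mesoderm, at 20 ng/mL. The labels do not say what change makes the mutant allele, whether the mutant line is 1 clone, or whether replicates were separate cultures, so p-values measure the spread between these libraries, which may be technical. The growth protocol describes dissected embryonic hearts and the series' design text names Brachyury mutants. Neither matches the titles, sample labels and treatment protocol, which were followed.

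Collagens are secreted proteins in which 3 chains wind into a helix, and each trimer type has its own set of genes. Fibrillar collagens (types I, III and V) form the cables of connective tissue and are made mainly by mesenchymal cells. Type IV collagen forms the sheet of basement membranes, which lie under epithelia and appear early in embryos, and cartilage builds fibrils from type II with types IX and XI. Before a chain is secreted it is hydroxylated and folded by chaperones in the endoplasmic reticulum. Outside the cell it is trimmed, crosslinked, bound by receptors and in time cut by metalloproteinases.

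Several collagen chains come from neighbouring genes that can share a start region. In the RefSeq annotation of GRCm38.p6 (mm10), Col4a1 and Col4a2 overlap by 85 bp on chromosome 8 and are read in opposite directions. The transcript starts behind their promoter windows lie 21 bp apart, and the windows overlap by 78 bp. Col4a4 and Col4a3 overlap by 114 bp on chromosome 1. Col4a6 and Col4a5 lie 1274 bp apart on the X chromosome, Col9a1 and Col19a1 4944 bp apart on chromosome 1, and Col3a1 and Col5a2 24624 bp apart on chromosome 1. Because the strand setting of the read counting is not given in the sources used here, reads in the overlaps cannot be told apart. The RefSeq table held 38 windows of 300 bases for 35 of the 44 genes, each with 250 bases before the start and 50 from it on. The pair Col4a1 and Col4a2 is shown because these genes moved together below, and Col1a2 because it had the largest log2 difference between genotypes among the fibrillar genes on day 6. Sequences run 5′ to 3′ on the gene's strand, and capitals mark CCAAT (the CCAAT box) or GGGCGG (a GC box), either as written or as their reverse complements ATTGG and CCGCCC.
Col4a1, chr8:11312777-11313076, minus strand: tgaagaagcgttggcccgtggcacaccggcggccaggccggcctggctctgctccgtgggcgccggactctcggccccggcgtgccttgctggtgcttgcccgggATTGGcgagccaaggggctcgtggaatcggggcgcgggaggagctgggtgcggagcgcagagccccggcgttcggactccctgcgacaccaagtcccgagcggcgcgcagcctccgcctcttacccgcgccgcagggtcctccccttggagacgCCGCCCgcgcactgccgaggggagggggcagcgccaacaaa
Col4a2, chr8:11312555-11312854, plus strand: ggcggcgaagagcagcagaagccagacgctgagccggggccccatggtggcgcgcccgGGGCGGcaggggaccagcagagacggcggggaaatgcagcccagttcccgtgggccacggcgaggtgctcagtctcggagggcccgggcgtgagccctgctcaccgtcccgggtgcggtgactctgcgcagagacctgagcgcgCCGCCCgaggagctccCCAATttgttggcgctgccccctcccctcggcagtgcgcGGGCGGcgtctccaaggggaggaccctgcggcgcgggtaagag
Col1a2, chr6:4505368-4505667, plus strand: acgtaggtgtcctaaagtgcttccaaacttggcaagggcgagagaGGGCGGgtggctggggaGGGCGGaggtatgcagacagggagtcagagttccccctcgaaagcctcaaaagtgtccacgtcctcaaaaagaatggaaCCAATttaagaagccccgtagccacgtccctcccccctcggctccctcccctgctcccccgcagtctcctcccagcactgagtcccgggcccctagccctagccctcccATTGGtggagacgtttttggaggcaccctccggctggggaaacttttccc
The Col4a1 window holds 1 CCAAT and 1 GC box, the Col4a2 window 1 CCAAT and 3 GC boxes, and the Col1a2 window 2 of each. Among the collagen windows 13 of 38 held CCAAT (34.2%, against 37.4% of all 32851 windows), 23 of 38 held GGGCGG (60.5% against 35.7%) and 5 of 38 held TATAAA (13.2% against 13.6%). Both strands were searched, none of the 3 motifs contains another, and a match is a description of the window only.

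The libraries held 43.3 to 68.4 M reads, inferred from the smallest RPKM steps. Hdn, the targeted RNA, had 37 to 240 reads in the wild-type day 6 libraries and 0 to 8 in the mutant ones, and 0 in the ESC libraries of both genotypes, where it checks nothing. Mutant day 4 replicate 3, mutant day 5 replicate 3 and all 3 mutant day 6 libraries contained RNA of mature heart muscle and of adult blood. Summed over 10 mature heart muscle genes, the level was 47.3 scaled RPKM in the first of these, 65.2 in the second and 152, 405 and 362 in the day 6 libraries, against 1.54 to 6.21 in the other 25. All 10 heart muscle genes and all 4 tested genes of the 6 for adult blood were called higher in mutants on day 6 (all genes: 3.66%). In wild type on day 6 the means of Myl2, Cox8b, Myoz2, Ckm and Pln were 0.0413 scaled RPKM or less. Such genes were tested largely because these mutant libraries held them, so the count is a description. Wild-type day 3 replicate 1 and wild-type day 6 replicate 3 also stood apart from their fellows, with more Col3a1 and Lum and with adult globin RNA, described with the fibrillar genes below. In whole cultures, fewer cells of a type and less RNA per cell cannot be told apart.

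Collagen RNA accumulated as the cells differentiated, and most of all in mutants on day 6. Levels are in scaled RPKM, which count reads per kilobase of gene after scaling each library for its depth, and so can be compared between genes. The 44 genes together gave 51.9 ± 8.21 (SD, n = 3) in wild-type ESCs and 200 ± 12.3 on day 6. In mutants the sum was 27.6 ± 12.2 in ESCs and 418 ± 92.3 on day 6. Mutant ESC replicate 1 stood apart from its fellows, at 41.7 against 20.05 and 21.03. The 3 mutant day 6 libraries gave 502, 434 and 319, and all 3 lay above the wild-type range of 191 to 214. On day 4 the genotypes overlapped, with 114.7 to 147.6 in wild type and 75.2 to 157 in mutants, and mutant replicate 3, which held heart transcripts, was the lowest. The make-up differed as well: fibrillar genes supplied 21.8 ± 8.27% of the collagen sum in wild type on day 6 and 38.0 ± 2.80% in mutants, and basement membrane genes 65.2 ± 6.76% and 46.8 ± 1.75%. Col18a1, the basement membrane collagen whose end fragment is endostatin, was the highest collagen in 26 of 30 libraries, Col4a2 in 3 and Col1a1 in 1.

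**Figure D1:**
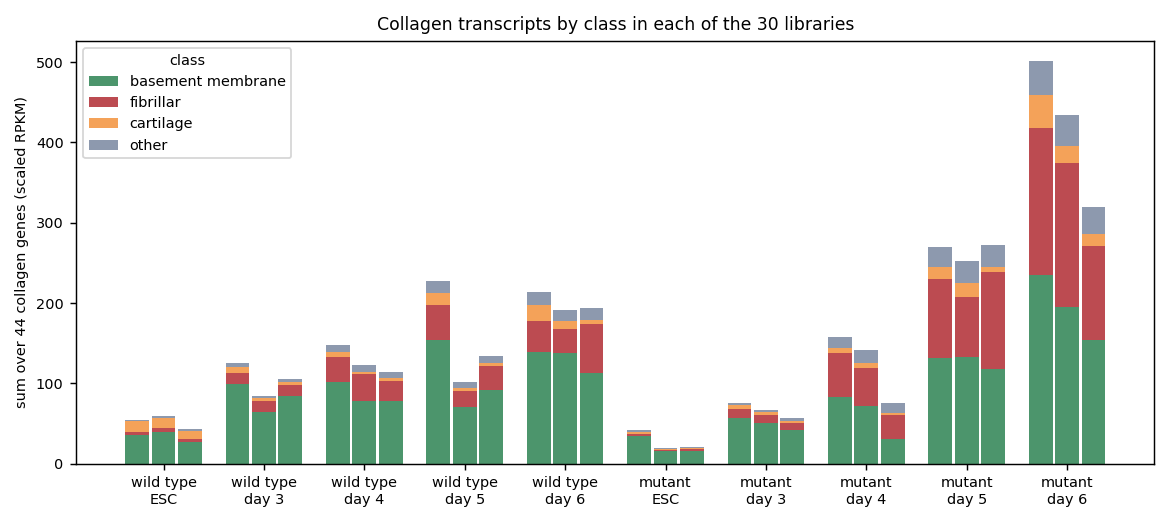
Sum of the levels of the 44 collagen genes in each library (bars, scaled RPKM), split by class, for the 10 groups of 3 libraries. The mutant day 6 bars reach 319 to 502 and the wild-type day 6 bars 191 to 214, and the fibrillar share is larger in the mutant bars from day 4 on.

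Of the 44 genes, 20 reached 1 scaled RPKM in at least 3 libraries and were tested among 14196 genes: 5 fibrillar, 4 cartilage, 4 basement membrane and 7 others. Among these 20, 8 reached that level in fewer than 3 wild-type libraries, so they were measured largely through the mutant ones, and the counts of called members below are a description of the tested genes and not of all members. The same limit holds for listed genes outside the collagens that were low in wild type. A call needed a change of at least 1 in log2(scaled RPKM + 0.5) and, in limma with Benjamini-Hochberg adjustment over all tested genes, an adjusted p under 0.05; higher, lower, rose and fell are used in that sense. Changes on this scale understate those of low genes. Mutant against wild type, limma called 0 collagens higher and 1 lower in ESCs, where 8.55% of all tested genes were higher and 3.13% lower. Without mutant ESC replicate 1, 2 were lower there. On day 3 it called 0 higher and 1 lower (all genes: 0.873% and 2.48%). On day 4 it called 3 higher and 2 lower (2.37% and 2.81%), on day 5 7 higher and 0 lower (2.42% and 3.59%) and on day 6 13 higher and 0 lower (3.66% and 4.12%). Col4a5 and Col23a1 reached 1 scaled RPKM in no wild-type library, and without these 2 there were 6 of 18 higher on day 5 and 11 of 18 on day 6. Others of the 8 stayed in these counts: Col9a1 on day 5, and Col3a1, Col5a2, Col6a2 and Col9a1 on day 6. At an unadjusted p under 0.05, 0 of the 20 were higher in ESCs and 0 on day 3, while 2 were lower on day 5 and 0 on day 6. Without the mutant day 4 and day 5 libraries that held heart transcripts, 4 were higher and 2 lower on day 4 and 9 higher on day 5. Leaving out any 1 day 6 library gave 9 to 13 higher on day 6 (12 without wild-type replicate 3, 11 without mutant replicate 2, 9 without wild-type replicate 2). The heart signal of day 6 was also estimated per gene from how far mutant day 4 and day 5 replicate 3 exceeded their fellows, scaled by the heart gene Myl2, and subtracted: 9 collagens were then higher and 3 lower with the mean of the 2 estimates, and 10 higher and 0 lower with the smaller estimate, which was chosen after seeing the data. Only 9 tested collagens had a signal to subtract by the mean estimate and 4 by the smaller. The values of the others could not change, those of Col1a1, Col1a2, Col5a2, Col6a2, Col9a2, Col13a1 and Col26a1 among them. Their calls after subtraction therefore do not test for heart RNA. The median log2 change of the 20 genes was -0.13 in ESCs, -0.16 on day 3, 0.48 on day 4, 0.87 on day 5 and 1.15 on day 6, and that of all tested genes lay between -0.10 and 0.01.

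The type IV collagen pair was lower in mutants in the middle of the course. Col4a1 (ENSMUSG00000031502, chr8:11198423-11312889) and Col4a2 (ENSMUSG00000031503, chr8:11312805-11449287) encode the chains of the most widespread type IV trimer. On day 3 Col4a2 stood at 6.84, 11.6 and 12.2 scaled RPKM in the wild-type libraries and 4.03, 3.46 and 3.09 in the mutant ones. All mutant libraries lay below all wild-type ones, and Col4a2 was lower by a log2 change of -1.38 (limma adjusted p = 0.00065, SE 0.26). Col4a1 stood at 5.50, 7.02 and 7.05 in wild type and 4.09, 3.83 and 3.14 scaled RPKM in mutants on day 3, again without overlap, but its log2 change of -0.75 (adjusted p = 0.036) was under the size needed for a call.

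On day 4 both chains were lower in mutants. Col4a2 was at 19.1, 30.8 and 27.4 scaled RPKM in wild type and 9.99, 9.63 and 8.77 in mutants (log2 change -1.37 with SE 0.26, limma adjusted p = 0.00047). Col4a1 was at 11, 19 and 16.8 scaled RPKM in wild type and 6.67, 6.35 and 6.87 in mutants (log2 change -1.14 with SE 0.24, limma adjusted p = 0.0014). The genotypes did not overlap for either gene. On day 5 the log2 changes were -0.61 for Col4a1 (adjusted p = 0.078) and -0.69 for Col4a2 (0.066), and on day 6 they were -0.27 (0.46) and -0.32 (0.42), none of them called. By then Col4a1 stood at 20.7, 36.1 and 22.3 scaled RPKM in wild type and 27.2, 18.6 and 18.5 in mutants, with overlap. Dropping wild-type day 4 replicate 2 removed the Col4a1 call on day 4 (log2 change -0.99) and both day 4 calls were lost with the mean heart estimate subtracted (-1.31 and -1.73, adjusted p = 0.064 and 0.19 in limma). They stood with the smaller estimate and without mutant day 4 replicate 3.

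The ratio of Col4a2 to Col4a1 levels changed with stage. In wild-type ESCs it was 0.622, 0.586 and 0.457, on day 3 1.24, 1.65 and 1.73, and on day 6 1.41, 1.36 and 1.26. In mutants it was 0.985, 0.906 and 0.985 on day 3, below all wild-type day 3 libraries, and 1.36, 1.12 and 1.44 on day 6, within or next to the wild-type range. These are ratios of levels per kilobase over different gene lengths and were not tested.

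**Figure D2:**
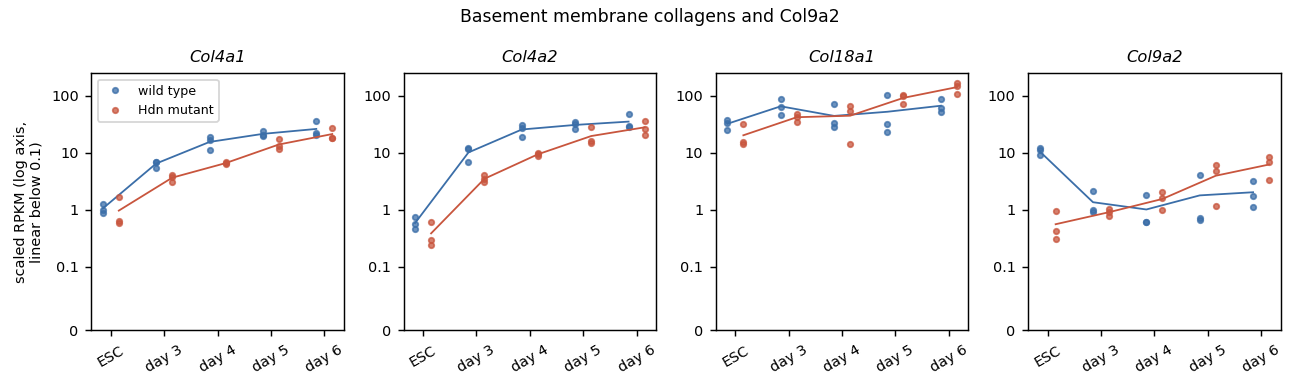
Level (scaled RPKM, log axis that is linear below 0.1) of Col4a1, Col4a2, Col18a1 and Col9a2 by stage; each point is 1 library and lines join group means. Col4a2 in mutants on day 3 (3.09 to 4.03) lies below wild type (6.84 to 12.2), and Col9a2 differs most in ESCs.

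The other type IV chains were low. Col4a5 (chrX:141475370-141689236), a chain of kidney and skin basement membranes, passed the filter through mutant libraries alone. On day 6 it stood at 0.587, 0.244 and 0.897 scaled RPKM in wild type and 1.65, 2.24 and 1.23 in mutants, with a log2 difference of 1.06, given as a description because the mutant libraries alone brought it into the test. Its neighbour Col4a6 stayed under the filter, with 118, 45 and 161 reads in wild type and 372, 440 and 210 in mutants on day 6, and the ratio of Col4a5 to Col4a6 levels was 2.45 to 2.84 in wild type and 2.21 to 2.63 in mutants. Col4a3 and Col4a4, the chains of the glomerular trimer, never exceeded 0.0169 and 0.00992 scaled RPKM, which is 10 and 6 reads. Dropping wild-type day 6 replicate 2 removed the Col4a5 call (log2 change 0.82), as did dropping mutant day 6 replicate 2 (0.89), a pseudocount of 1 (0.79) and subtraction of the heart signal (-0.08 or 0.95 by the 2 estimates).

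Col18a1 (chr10:77052178-77166530) varied more between libraries than between genotypes at most stages. On day 6 it stood at 88.1, 51.8 and 61.9 scaled RPKM in wild type and 168, 152 and 107 in mutants, and all mutant libraries lay above the wild-type ones. The log2 change of 1.09 had an SE of 0.49 and did not pass (limma adjusted p = 0.11). On day 4 mutant replicate 3, one of the libraries with heart transcripts, had 14.3 against 65.8 and 54.8 in its fellows, and on day 5 wild-type replicate 1 had 102 against 23.6 and 32.6.

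All 5 tested genes of the fibrillar class were higher in mutants by day 6, and Col1a1 was the first to differ. Col3a1 reached 1 scaled RPKM in 2 wild-type libraries and Col5a2 in 1, so both entered the test largely through mutant ones. Col2a1, counted with the cartilage class, was not called between genotypes. Col1a1 (ENSMUSG00000001506, chr11:94936224-94953042) and Col1a2 (ENSMUSG00000029661, chr6:4505618-4541543) encode the chains of type I collagen, the main protein of skin, tendon and bone. Col1a1 stood at 13.4, 9.40 and 6.62 scaled RPKM in wild type and 34.0, 30.9 and 16.8 in mutants on day 4. Every mutant library was above every wild-type one, and the log2 change was 1.42 (limma adjusted p = 0.0038, SE 0.34). On day 5 Col1a1 was at 19, 6.47 and 12.4 scaled RPKM in wild type and 65.7, 49.8 and 70.1 in mutants (log2 change 2.35, adjusted p = 1.8e-05). Day 6 values were 19.4, 13.6 and 30.4 in wild type and 111, 99.7 and 60.7 in mutants (log2 change 2.10, adjusted p = 4.9e-05), so the groups stayed apart at all 3 stages. In ESCs and on day 3 the log2 changes were -0.34 and 0.30, and Col1a1 was not called. The day 4 call was lost with only the 6 libraries compared.

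Col1a2 followed later and at a lower level. On day 5 its wild-type libraries held 1.04, 0.535 and 0.762 scaled RPKM and its mutant ones 3.86, 3.01 and 4.23, with log2 change 1.72 (limma adjusted p = 0.0034, SE 0.41). The day 6 values were 0.972, 1.33 and 4.97 in wild type and 11.1, 17.6 and 7.61 in mutants, a log2 change of 2.28 (SE 0.41, adjusted p = 0.00016). The groups did not overlap on either day, although wild-type replicate 3 was the highest of its group on day 6. The ratio of Col1a1 to Col1a2 levels was 16.5 to 17 in the 3 mutant day 5 libraries and 5.66 to 10.0 in the mutant day 6 ones. In wild type it was 12.1 to 18.3 on day 5 and 6.12 to 19.9 on day 6. In wild-type day 3 replicate 1 it was 1.95 while its fellows had 28.5 and 22.9, where Col1a2 stood at 1.74 scaled RPKM against 0.132 and 0.163 and Col1a1 at 3.4 against 3.77 and 3.74.

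Col3a1 (ENSMUSG00000026043, chr1:45311538-45349706), whose type III fibrils accompany type I in vessels and embryonic connective tissue, was uneven between libraries of a group. It was nearly absent from mutant libraries on day 3, at 0.0122, 0.00916 and 0.0113 scaled RPKM, which is 7, 4 and 6 reads. On day 6 it stood at 5.91, 20.6 and 4.96 in mutants and 0.545, 0.352 and 6.95 in wild type, where replicate 3 alone lay inside the mutant range. The log2 change was 2.27 (limma adjusted p = 0.0054, SE 0.59), and without wild-type day 6 replicate 3 it was 3.26 (adjusted p = 2.3e-05). It was lost with only the 6 libraries compared (adjusted p = 0.14), on dropping replicate 2 of wild-type day 6 (1.70, 0.062) and without mutant day 6 replicate 2 (1.65, 0.055).

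Libraries with high Col3a1 also held more RNA of some fibroblast genes, but not of the whole fibroblast list. In wild-type day 6 replicate 3, Postn, a matrix protein of fibroblasts, stood at 6.45 scaled RPKM against 0.399 and 0.536 in its fellows, Lum, a fibril-binding proteoglycan, at 3.36 against 0.368 and 0.144, and the 6 adult blood genes summed to 49.3 against 0.919 and 0.415. In wild-type day 3 replicate 1, Col3a1 stood at 1.97 scaled RPKM against 0.0155 and 0.0198, Dcn at 0.955 against 0.0087 and 0, and the blood sum was 4.83 against 0.4 and 0.435. In mutant day 6 replicate 2, Lum stood at 13 scaled RPKM and Postn at 12.1, against 2.89 and 3.09 in replicate 1 and 4.42 and 4.30 in replicate 3. Thy1 was the lowest of its group in each of these libraries, at 0.172, 2.96 and 0.546 scaled RPKM in the order given. Pdgfrb was lowest (1.07) in the day 3 library and in the middle (3.16 and 7.42) in the day 6 ones. Prrx1 was highest in the day 3 library alone, and Twist2 and Dcn were highest in both day 6 libraries. Over the whole list of 11 fibroblast or feeder cell genes, the summed level was 30.7 to 60.5 scaled RPKM in wild type and 42.6 to 75.3 in mutants on day 6, and 4 of its 6 tested genes were higher in mutants (all genes: 3.66%). Of these 4, Lum, Postn and Twist2 exceeded 1 scaled RPKM in wild type only in day 6 replicate 3. They entered the test largely through mutant libraries, so the count is a description. Cdkn2a was the highest gene of the list in every day 6 library, at 25.71 to 45.64 scaled RPKM in wild type and 22.55 to 36.89 in mutants. It was lower in mutants on day 3 (log2 change -2.93) and day 4 (-1.61). On day 6 Cdkn2a (-0.43) and Thy1 (0.45) were not called. Mmp3 and S100a4 were at 0 in all day 6 libraries of both genotypes, and Fap was at 0.00292 scaled RPKM or less in mutants and 0.0054 or less in wild type. Other genes of the list were present in the mutant day 6 libraries: Pdgfrb at 7.10 to 10.1 scaled RPKM against 3.03 to 3.33 in wild type, Twist2 at 2.07 to 3.58 against 0.573 to 1.64, Prrx1 at 0.488 to 0.814 against 0.0957 to 0.295 and Dcn at 0.313 to 1.05 against 0.0242 to 0.361. Their part in the collagen values was not tested.

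**Figure D3:**
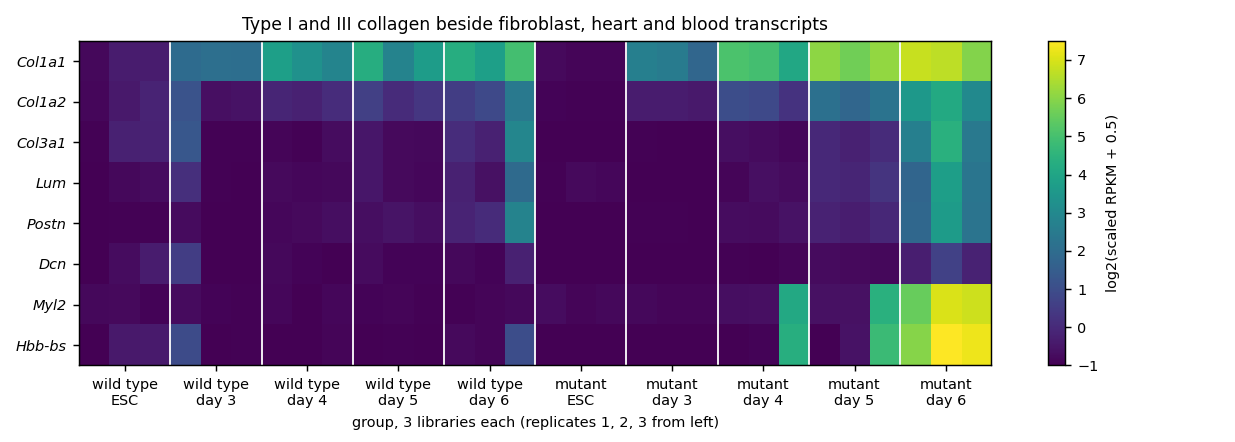
Level of Col1a1, Col1a2 and Col3a1, of the fibroblast genes Lum, Postn and Dcn, of the heart gene Myl2 and of the globin Hbb-bs in each of the 30 libraries (colour, log2 of scaled RPKM + 0.5). Col3a1, Lum and Postn are high together in wild-type day 6 replicate 3 and mutant day 6 replicate 2, while Myl2 and Hbb-bs are high in 5 mutant libraries.

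The type V chains, which set the width of type I fibrils, were called on day 6. Col5a1 (chr2:27886381-28039510) was at 17.1, 14.5 and 16.9 scaled RPKM in wild type and 51.6, 37.4 and 41.0 in mutants (log2 change 1.39 with SE 0.27, limma adjusted p = 0.00036). Col5a2 (chr1:45374331-45503282) was at 0.355, 0.272 and 1.15 scaled RPKM in wild type and 2.94, 3.29 and 1.45 in mutants (log2 change 1.51, SE 0.26, adjusted p = 8.4e-05). Neither overlapped between genotypes. On day 3 the order was the other way for Col5a1, with 5.43, 9.26 and 9.40 in wild type and 4.44, 3.88 and 4.48 in mutants, but the log2 change of -0.80 (adjusted p = 0.042) was not called. The Col5a1 value on day 6 turned to -3.03 when the mean estimate of heart signal was subtracted and was 1.39 with the smaller estimate. With the mean estimate mutant replicates 2 and 3 fell below 0 and were set to 0, so -3.03 does not measure a level. The smaller estimate found no signal for Col5a1 and left it unchanged. Among the 3 other fibrillar genes, Col5a3, Col24a1 and Col27a1, the highest level in a library was 0.684, 0.0736 and 0.320 scaled RPKM.

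**Figure D4:**
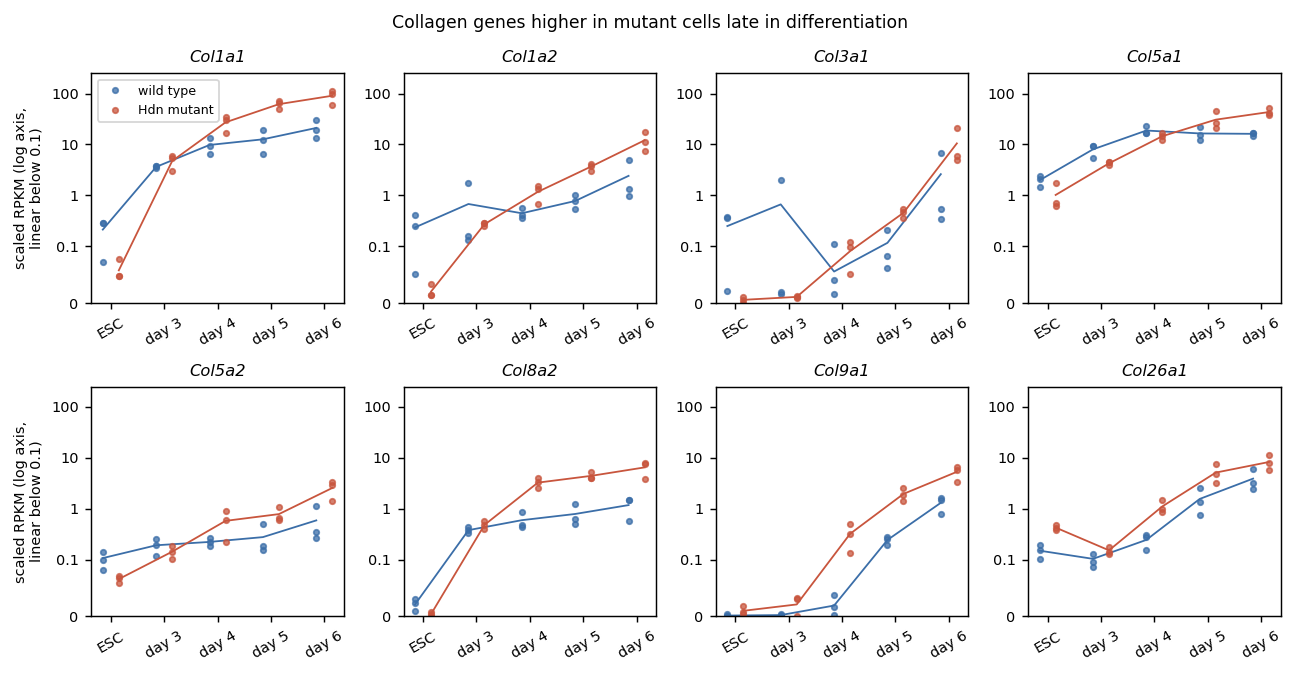
Level (scaled RPKM, log axis that is linear below 0.1) of 8 collagens that were called higher in mutants on day 6, by stage; each point is 1 library and lines join group means. For Col1a1 the genotypes part on day 4 (16.8 to 34.0 against 6.62 to 13.4), for Col5a1 on day 6, and for Col3a1 and Col26a1 they overlap on day 6.

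The largest single difference of a collagen between genotypes was Col9a2 in ESCs. Col9a2 (ENSMUSG00000028626, chr4:121039566-121055325) encodes a chain of type IX collagen, which decorates cartilage fibrils. Its wild-type ESC libraries stood at 12, 11.1 and 9.04 scaled RPKM and its mutant ones at 0.947, 0.429 and 0.311. Every mutant value was below every wild-type one, with a log2 change of -3.43 (limma adjusted p = 4.4e-06, SE 0.49). The other type IX chains were low there: Col9a1 had 0 to 5 reads in each of the 6 ESC libraries, and Col9a3 stood at 0.123, 0.135 and 0.116 scaled RPKM in wild type and 0.217, 0.238 and 0.187 in mutants (log2 change 0.19, adjusted p = 0.58). On day 3 Col9a2 was down to 2.15, 1.01 and 0.940 scaled RPKM in wild type and stood at 1.02, 0.922 and 0.795 in mutants, with overlap.

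Later in the course Col9a1 and Col9a2 were higher in mutants. Col9a1 (chr1:24177589-24252738) was at 0.282, 0.196 and 0.255 scaled RPKM in wild type and 1.43, 2.53 and 1.90 in mutants on day 5 (log2 change 1.70 with SE 0.20, limma adjusted p = 8.8e-07). Day 6 values were 1.505, 0.805 and 1.62 in wild type and 5.84, 6.74 and 3.33 in mutants (log2 change 1.66, SE 0.20, adjusted p = 8.6e-07). The groups did not overlap on either day. Col9a1 reached 1 scaled RPKM in 2 wild-type libraries, so it entered the test largely through mutant ones. Col9a2 was higher on day 6 at 8.48, 7.02 and 3.30 scaled RPKM against 3.23, 1.78 and 1.12 (log2 change 1.41, SE 0.49, adjusted p = 0.035). That call did not hold on dropping replicate 2 or 3 of wild-type day 6 or replicate 1 or 2 of mutant day 6, with a pseudocount of 0.1, with no filter and with only the 6 libraries compared. Col9a3 was never called, and on day 6 stood at 0.575, 0.678 and 0.292 scaled RPKM in wild type and 1.66, 0.758 and 0.869 in mutants.

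Col2a1 (chr15:97975602-98004724), the chain of type II collagen and the highest of the cartilage class, was not called between genotypes at any stage. It varied widely on day 6, at 13.6, 6.60 and 1.01 scaled RPKM in wild type and 23.5, 6.07 and 7.89 in mutants. Col10a1, the marker of hypertrophic cartilage, never exceeded 6 reads in a library. Of the cartilage programme outside the collagens, 4 of 12 genes were tested. Hapln1, which links proteoglycan to hyaluronan, was higher in mutants on day 5 (log2 change 1.27, limma adjusted p = 6.1e-06) and day 6 (1.13, 1.8e-05), and the other 3 were not called. Acan, the proteoglycan core protein of cartilage, stayed at 0.0215 to 0.0827 scaled RPKM in the day 6 libraries.

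Among the remaining collagens, Col8a2 and Col26a1 were higher in mutants on days 4, 5 and 6, and Col26a1 overlapped between genotypes on day 6. Col8a2 (ENSMUSG00000056174, chr4:126286794-126314330), a short-chain collagen of the corneal endothelial membrane and of vessels, stood at 0.874, 0.475 and 0.442 scaled RPKM in wild type and 2.54, 3.28 and 3.94 in mutants on day 4 (log2 change 1.78 with SE 0.24, limma adjusted p = 8.3e-06). Day 5 values were 1.22, 0.508 and 0.641 in wild type and 4.00, 4.05 and 5.21 in mutants (log2 change 1.96, adjusted p = 1.6e-06). On day 6 it was at 1.47, 0.586 and 1.49 in wild type and 7.69, 7.86 and 3.88 in mutants (log2 change 2.05, adjusted p = 6.3e-07). No mutant library fell into the wild-type range at these 3 stages. On day 3 it was at 0.332 to 0.429 in wild type and 0.399 to 0.565 in mutants, with overlap (log2 change 0.15, not called). The day 6 change was -0.35 and -0.24 after subtraction of the heart signal by the 2 estimates, while without the mutant libraries of days 4 and 5 that held heart transcripts the calls on those days stood.

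Col26a1 (chr5:136741759-136883376), first described in mouse testis and ovary, stood at 0.303, 0.154 and 0.279 scaled RPKM in wild type and 0.873, 1.47 and 1.00 in mutants on day 4 (log2 change 1.10 with SE 0.29, limma adjusted p = 0.0078). Day 5 values were 2.61, 0.738 and 1.33 in wild type and 4.73, 7.39 and 3.25 in mutants (1.49, adjusted p = 0.00055). Day 6 values were 6.03, 3.23 and 2.45 in wild type and 11.3, 7.79 and 5.74 in mutants (1.03, adjusted p = 0.0098), where wild-type replicate 1 lay within the mutant range. The day 6 call did not hold on dropping replicate 2 or 3 of wild-type day 6 or replicate 1 of mutant day 6 (0.95, 0.78 and 0.79), at the same sum per library (1.00), with 1 as pseudocount (0.94) and with only the 6 libraries compared. On day 4 the call did not hold on dropping mutant replicate 2 (0.95) and with a pseudocount of 1 (0.76), and the day 5 call with only the 6 libraries compared.

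Col13a1 and Col23a1 encode collagens that stay in the cell membrane, and Col13a1 was higher in mutants on days 5 and 6. Col13a1 (chr10:61838234-61979206) was at 1.23, 1.03 and 1.14 scaled RPKM in wild type and 4.43, 3.65 and 3.85 in mutants on day 6 (log2 change 1.45 with SE 0.20, limma adjusted p = 9.0e-06). On day 5 its log2 change was 1.23 (adjusted p = 9.0e-05), and on day 4 0.97 (0.0013), just under the size needed. Col23a1 (chr11:51289679-51583925) never reached 1 scaled RPKM in wild type and stood at 1.49, 1.57 and 1.08 in mutants on day 6 (log2 difference 1.07, and 1.17 on day 5). It entered the test through mutant libraries alone, so these differences are a description. Groups of Col13a1 did not overlap on days 5 and 6. The day 6 call of Col23a1 was lost with quantile normalization (1.00), a pseudocount of 1 (0.77) and the heart signal subtracted (0.42 or 0.89).

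Type VI collagen forms beaded filaments in the matrix around mesenchymal cells. Col6a2 (chr10:76595756-76623630) was at 0.870, 0.920 and 1.5 scaled RPKM in wild type and 3.04, 3.58 and 2.90 in mutants on day 6 (log2 change 1.22 with SE 0.16, limma adjusted p = 5.4e-06). Col6a1 (chr10:76708792-76726044), its neighbour and the highest gene of this class, was at 4.58, 4.87 and 6.51 in wild type and 10.3, 9.37 and 11.8 in mutants, without overlap, and its log2 change of 0.93 (adjusted p = 0.0010) was under the size needed. On day 5 Col6a2 had a log2 change of 0.91 (limma adjusted p = 0.00025). It reached 1 scaled RPKM in 2 wild-type libraries, so it entered the test largely through mutant ones. Col6a3, the chain that completes the trimer, stayed under the filter, with 24, 18 and 52 reads in wild type and 213, 236 and 161 in mutants on day 6. Col16a1, a fibril-associated collagen, had a log2 change of 0.55 on day 6 (adjusted p = 0.013) and was not called between genotypes at any stage.

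**Figure D5:**
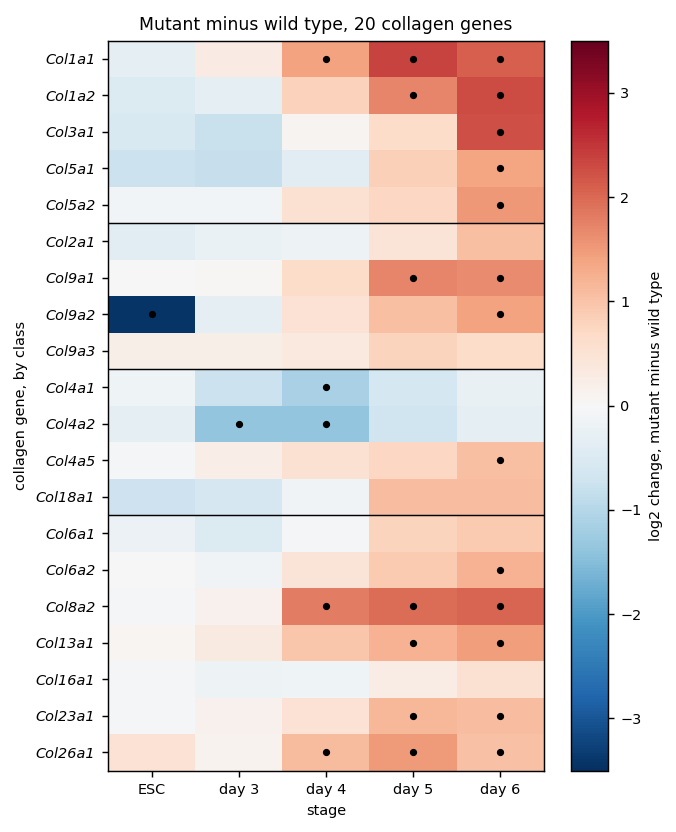
Log2 change of the 20 tested collagens, mutant minus wild type, at the 5 stages (colour; black dots mark calls by limma), grouped by class. Calls of higher RNA number 3 on day 4, 7 on day 5 and 13 on day 6, with Col4a5 and Col23a1 among them, and the lower calls are Col9a2 in ESCs, Col4a2 on days 3 and 4 and Col4a1 on day 4.

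Of the 24 genes under the filter, 10 stayed below 0.1 scaled RPKM in all 30 libraries and 13 peaked between 0.1 and 1. Col14a1 alone passed 1, in mutant day 6 replicate 2 at 1.30. Their total reads over all libraries ranged from 20 for Col28a1 to 6014 for Col12a1. Col12a1, which sits on the surface of fibrils, stood at 0.450, 0.152 and 0.132 scaled RPKM in wild type and 0.996, 0.621 and 0.698 in mutants on day 6. Col11a1 stood at 0.125, 0.0693 and 0.0747 in wild type and 0.544, 0.431 and 0.393 in mutants. In both, every mutant library was above every wild-type one, and neither was tested because of the filter.

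Within wild-type cells, Col4a1, Col4a2, Col1a1, Col5a1 and Col6a1 rose by day 3. From ESC to day 3, limma called 5 collagens higher and 1 lower (all genes: 17.4% and 20.3%). Col4a2 rose from 0.557, 0.750 and 0.462 scaled RPKM to 6.84, 11.6 and 12.2 (log2 change 3.26, SE 0.26, adjusted p = 8.5e-11). Col1a1 rose from 0.0722, 0.284 and 0.285 to 3.4, 3.77 and 3.74 (2.55, adjusted p = 4.5e-07). Col4a1 (2.17), Col5a1 (1.76) and Col6a1 (1.68) rose as well, and Col9a2 fell by 2.63 on the log2 scale (adjusted p = 4.4e-05). None of these groups overlapped. From day 3 to day 6, limma called 9 higher and 0 lower (8.95% and 4.95%; 0 lower at an unadjusted p under 0.05): Col26a1 (log2 change 2.78), Col1a1 (2.31), Col4a1 (1.90), Col9a1 (1.82), Col4a2 (1.74), Col6a1 (1.61), Col13a1 (1.38), Col1a2 (1.32) and Col5a1 (1.00). The Col9a1 value depends on the pseudocount, since the day 3 libraries held 1, 0 and 1 reads. Col1a2 overlapped between stages and its call did not hold without wild-type day 6 replicate 3 (0.74), wild-type day 3 replicate 2 (1.01) or 3 (1.04), with only the 6 libraries compared or with a pseudocount of 1. For Col5a1 the call ended on leaving out replicate 1 of wild-type day 3 (0.76) or replicate 1 (0.96) or 3 (0.97) of wild-type day 6, with quantile normalization (0.94) and with a pseudocount of 1 (0.96), and that of Col13a1 with a pseudocount of 1 (0.92).

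In mutant cells 6 collagens rose to day 3 and 19 after it. From ESC to day 3, limma called 6 higher and 0 lower (all genes: 18.2% and 21.6%; 1 lower at an unadjusted p under 0.05): Col1a1 (log2 change 3.19), Col4a2 (2.20), Col5a1 (1.72), Col4a1 (1.58), Col6a1 (1.39) and Col18a1 (1.12). The Col18a1 call, at an adjusted p of 0.044, did not hold on dropping replicate 2 or 3 of mutant ESC or any 1 of the mutant day 3 libraries. From day 3 to day 6, 19 of the 20 rose and 0 fell (12% and 5.58%; 0 lower at an unadjusted p under 0.05), the exception being Col9a3 (log2 change 0.17, SE 0.26). The largest were Col3a1 (4.15), Col1a1 (4.12), Col1a2 (3.95), Col26a1 (3.70), Col9a1 (3.43), Col5a1 (3.19), Col6a1 (3.02) and Col4a2 (2.80), and for all 19 the day 6 libraries lay above the day 3 ones. Of the 20, 8 reached 1 scaled RPKM in fewer than 3 wild-type libraries, Col3a1 and Col9a1 among them. Col4a5 reached it in the 3 mutant day 6 libraries only. For such genes the filter itself favoured a rise in mutants, so the count of 19 is a description. The Col2a1 rise (2.05, adjusted p = 0.017) was lost without mutant day 6 replicate 1 (1.49). All 3 mutant day 6 libraries held heart and blood transcripts, and subtraction of the heart signal by the mean estimate ended the rise of Col5a1 (-1.23), Col4a2 (-1.13), Col4a1 (0.52), Col4a5 (0.49), Col8a2 (0.37) and Col23a1 (0.90). The smaller estimate ended that of Col8a2 (0.49). The day 3 libraries are shared with the comparison from ESC to day 3.

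The genotype difference itself depended on stage for several members. An F test of whether the mutant effect differed among the 5 stages passed for 15 of 20 collagens (limma adjusted p under 0.05, against 42.2% of all tested genes). Between day 3 and day 6 the mutant effect differed for 10 of 20 collagens, all toward higher RNA in mutants on day 6 (7.2% of all tested genes in either direction). They were 5 fibrillar genes, Col1a1, Col1a2, Col3a1, Col5a1 and Col5a2, the cartilage gene Col9a1, and Col6a1, Col6a2, Col8a2 and Col13a1. Among them Col3a1, Col5a2, Col6a2 and Col9a1 reached 1 scaled RPKM in fewer than 3 wild-type libraries, so they entered the test largely through mutant ones. Col3a1 had the largest difference of effects at 3.04 on the log2 scale and Col1a2 followed at 2.63. Between ESC and day 3 the mutant effect differed for Col9a2 (3.09) and Col4a2 (-1.06). That count is near the share over all tested genes (9.52% in either direction) and so is no trait of the collagens.

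Of 20 genes that modify, fold or export new chains, 17 were tested, and at each stage 2 were called between genotypes. In ESCs, on day 3 and on day 4 these were 1 higher and 1 lower, and the ESC count is near the share over all tested genes (8.55% higher and 3.13% lower). On day 3 these shares were 0.873% and 2.48%, and on day 4 2.37% and 2.81%. On day 3 Crtap, part of the prolyl 3-hydroxylase complex, was lower in mutants at 10.1, 10.8 and 11 scaled RPKM against 34.2, 28.7 and 30.1 (log2 change -1.5, limma adjusted p = 6.6e-08), and on day 4 it was again lower (-1.02, 8.8e-06). On days 5 and 6, 2 of the 17 were higher (all genes: 2.42% and 3.66%): Fkbp10, a chaperone of procollagen, at a log2 change of 1.24 and 1.42, and P3h4, a partner of the lysyl hydroxylase, at 1.05 and 1.06. Serpinh1, the collagen chaperone also called Hsp47, was lower in mutant ESCs (-1.01, adjusted p = 1.4e-05) and on day 6 stood at 837, 1022 and 865 scaled RPKM in mutants against 485, 380.5 and 614 in wild type (log2 change 0.90, adjusted p = 0.00012), under the size needed. The median log2 change of the 17 genes on day 6 was 0.56, against 0.01 for all tested genes.

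Genes that trim and crosslink collagen moved in both directions over the course. Of 8 tested, Bmp1, the protease that removes the C-terminal propeptide, was lower in mutants on day 3 (log2 change -1.79, limma adjusted p = 2.6e-07) and day 4 (-1.10, 0.00010), and Pcolce, its enhancer, on day 3 (-1.55, 5.4e-05). Of all tested genes, 2.48% were lower on day 3 and 2.81% on day 4. On days 5 and 6 Adamts2, which removes the N-terminal propeptide, and Loxl1, a lysyl oxidase, were higher (all genes: 2.42% and 3.66%). On day 6 Loxl1 stood at 91.1, 78.0 and 67.0 scaled RPKM in mutants and 19.6, 17.2 and 24.3 in wild type (log2 change 1.93, adjusted p = 1.7e-05). Adamts2 stood at 6.55, 7.08 and 5.36 in mutants and 0.825, 0.443 and 2.51 in wild type (2.13, limma adjusted p = 3.5e-06), and neither gene overlapped. Before day 6 the wild-type group means of Adamts2 were 0.471 scaled RPKM or less, so it entered the test largely through mutant libraries.

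Some degradation and fibril-associated genes were also higher in mutants late in the course. Of 7 tested genes of the degradation list, 5 were not called on days 4, 5 and 6. These were Mmp9, Mmp15 and the metalloproteinase inhibitors Timp1, Timp2 and Timp3. Timp2 had log2 changes of 0.74 on day 4 and 0.83 on day 5, under the size needed. The day 6 means of Mmp9 and Mmp15 were 2.20 and 13.8 scaled RPKM in mutants and 1.28 and 18.8 in wild type. The other 2, Mmp2 (gelatinase A) and Mmp14, the membrane protease that activates it, were higher in mutants on days 4, 5 and 6, with log2 changes of 1.12, 1.41 and 1.29 for Mmp2 and 1.09, 1.39 and 1.57 for Mmp14. Of all tested genes, 2.37%, 2.42% and 3.66% were higher on these days. Mmp15 was lower in mutant ESCs (log2 change -2.08, limma adjusted p = 1.2e-06), where 3.13% of all tested genes were lower. On day 6 Mmp14 was at 86.0, 69.1 and 64.9 scaled RPKM in mutants and 20.5, 26.9 and 25.8 in wild type. Of 3 tested collagen receptors, Mrc2, which takes up cut collagen, was higher on days 5 and 6 (1.13 and 1.16, all genes: 2.42% and 3.66%). Of 10 tested fibril-associated genes, 6 were higher on day 6 (all genes: 3.66%): Lum (2.23), Postn (1.69), Emilin1 (1.56), Tnc (1.48), Fbn1 (1.23) and Eln (1.23), and their list median was 1.23. Lum and Postn are the genes that were high in the same libraries as Col3a1. Among wild-type libraries they exceeded 1 scaled RPKM only in day 6 replicate 3. The wild-type day 6 means of Tnc, Fbn1 and Eln were 0.592, 0.563 and 0.449 scaled RPKM. The count of 6 is therefore a description, since most of these genes were low in wild type.

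Of 15 tested partners of type IV collagen in basement membranes, Nid1, which links laminin to type IV collagen, was lower in mutants on day 3 (log2 change -1.22, limma adjusted p = 0.0049), day 4 (-1.36, 0.0015) and day 5 (-1.53, 0.00040). At these stages 2.48%, 2.81% and 3.59% of all tested genes were lower. On day 6 Nid1 was not called, while Nid2 (1.30, adjusted p = 0.047), Lama1 (1.15) and Lama4 (1.16) were higher (all genes: 3.66%). Lamb1, a laminin chain, was higher in mutant ESCs (1.05, adjusted p = 0.00026), where 8.55% of all tested genes were higher.

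Some markers of other cells also differed between genotypes, in both directions. Of 12 tested mesoderm and mesenchyme genes, 1 was lower in mutants on day 3, and 3 were higher on day 4, 4 on day 5 and 4 on day 6 (all genes: 2.48% lower on day 3, and 2.37%, 2.42% and 3.66% higher), among them Pdgfra, a receptor of mesenchymal cells (log2 changes 1.35, 1.13 and 1.31), and Foxf1, a lateral mesoderm factor (2.90, 1.79 and 1.45). Of 9 tested trophoblast and surface ectoderm genes, 2 were lower in mutant ESCs, 5 on day 3, 3 on day 4, 3 on day 5 and 3 on day 6 (all genes: 3.13%, 2.48%, 2.81%, 3.59% and 4.12% lower), from day 3 on among them Krt7 and Tfap2c (-1.80, -2.49, -2.72 and -2.30), while Cdx2 was higher on days 4 and 5. Of 10 pluripotency genes, 5 were lower on day 3, 5 on day 4, 4 on day 5 and 4 on day 6, against the same shares of all genes. Zfp42 was lower at these stages (log2 change -2.13 on day 3 and -1.97 on day 6) but higher in mutant ESCs (1.11, limma adjusted p = 6.3e-06). The endoderm gene Plat was lower on days 4, 5 and 6 (all genes: 2.81%, 3.59% and 4.12%), while Ttr, Dab2 and Thbd were higher on day 6 (3.66%). Sox17, Apoa1 and Foxa2, the other tested endoderm genes, were not called between genotypes. Of the chondrogenic markers Sox9 and Matn1 were tested, and neither was called between genotypes. Their part in the collagen values was not tested.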

How the data were processed

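The authors deposited RPKM values (reads per kilobase, scaled to the mapped reads) for 52636 genes in 30 libraries; 233 of them had no symbol. STAR, DESeq2 and mm10 are named, without versions, per the submitters' processing notes; for annotation, counting and strand, nothing was given in the sources used here. Per the labels' protocols, libraries were made from total RNA with ScriptSeq v2. RPKM were divided by a median-ratio size factor from 11618 genes (0.888 to 1.106). The 14196 genes that reached 1 scaled RPKM in 3 or more libraries were transformed as log2(scaled RPKM + 0.5) and fitted in limma 3.58.1 (R 4.3.3) with trend and 10 group means, two-sided, with Benjamini-Hochberg adjustment over all kept genes. The fit was tested on simulated data. Whole reads were recovered for all 44 collagens from the 1-read steps (tolerance 0.0001); a count of 0 allows 3 reads, for counting error only. Figures were drawn with matplotlib 3.10.9 in Python 3.11.15.

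All called collagens were named, up to 8 per direction and comparison by size, together with the highest collagen of each class, the head-to-head pairs and the chains of a trimer. The members, lists and tests were chosen with earlier results of these data known. Same-numbered libraries were checked for shared deviations from their group means: every correlation passed 0.1 only for mutant day 3 against day 6 (0.574, 0.137 and 0.305), and the count of collagens higher in that comparison was 19 with the replicate block too. Of the 34 samples in the series, 1 heart library and 3 chromosome conformation samples were not analysed here.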

Additional observations from a re-analysis of the deposited data

Results flagged for a closer look

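The difference between mutant and wild-type cells depended on stage for 12 collagen results, each tested as a difference of effects in limma with Benjamini-Hochberg adjustment over all tested genes. Among all tested genes the effect differed for 9.52% between ESC and day 3, near the share of collagens, and for 7.2% between day 3 and day 6. Between ESC and day 3, the mutant effect on Col9a2 changed by 3.09 on the log2 scale (from -3.43 to -0.35, adjusted p = 0.0021) and that on Col4a2 by -1.06 (from -0.31 to -1.38, adjusted p = 0.038). The Col4a2 result was lost under 12 alternatives, 8 of which left out a single library.

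Between day 3 and day 6 the mutant effect moved upward for the fibrillar genes Col3a1 (difference 3.04), Col1a2 (2.63), Col5a1 (2.19), Col1a1 (1.8) and Col5a2 (1.62). It did so as well for Col8a2 (1.89), Col9a1 (1.61), Col6a1 (1.41), Col6a2 (1.34) and Col13a1 (1.15). Col3a1 was lost on dropping replicate 1 of wild-type day 3 (2.29), replicate 2 of wild-type day 6 (2.47) or replicate 2 of mutant day 6 (2.42), and Col13a1 with a pseudocount of 0.1 (1.00, limma adjusted p = 0.096). With the mean heart estimate subtracted, the differences were 0.39 for Col6a1, -2.23 for Col5a1 and -0.51 for Col8a2, none of them called, and with the smaller estimate -0.39 for Col8a2. All 3 mutant day 6 libraries held mature heart and adult blood transcripts, whose part in these differences was not tested beyond the subtraction.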

How the results depend on the processing

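Of 79 results on single collagens, 47 kept their direction and call under all alternatives run, and 7 changed sign, all with heart signal subtracted. With the mean of both estimates, Col5a1 became -3.03, Col4a5 -0.081 and Col8a2 -0.35 on day 6 against wild type, Col5a1 -1.23 and Col4a2 -1.13 from mutant day 3 to day 6, and the change of effect from day 3 to day 6 became -2.23 for Col5a1 and -0.51 for Col8a2. With the smaller estimate Col8a2 became -0.24 and -0.39 in the same comparisons. The mean estimate took 6 day 6 values of tested collagens below 0, the smaller 1, and such values were set to 0. With the mean these were Col5a1 and Col4a2 in mutant replicates 2 and 3, and Col4a5 and Col8a2 in replicate 3. The sign changes of these genes rest in part on such values. Tested collagens without an estimated signal were not changed by the subtraction. Of 18 counts of called collagens, 14 moved by over 1.5 times. In ESCs, higher calls were 1 with a pseudocount of 0.1 and lower calls 2 by adjusted p alone (1 to 2 leaving out 1 library); on day 3, lower calls were 3 by adjusted p alone (1 to 2). On day 4, higher calls were 7 with a pseudocount of 0.1 and 7 by adjusted p alone, and lower calls 0 with the mean heart estimate (1 to 2 leaving out 1 library). On day 5, higher calls were 11 with a pseudocount of 0.1, 4 with a filter of 5 and 13 by adjusted p alone (7 to 11). On day 6, higher calls were 7 with a filter of 5 and lower calls 3 with the mean heart estimate. From wild-type ESC to day 3, higher calls were 9 with a pseudocount of 0.1 and 9 by adjusted p alone, and lower calls 2 with these and at the same sum per library (1 to 2). From wild-type day 3 to day 6 higher calls were 14 under both. From mutant ESC to day 3 they were 12 under both, with 2 and 1 lower, and from mutant day 3 to day 6 they were 12 with a filter of 5. A filter of 5 tests fewer genes; the other causes were not tested. With the replicate block, higher calls were 9 on day 5 and 14 on day 6, and no call among the 79 results changed. Genes near 0 reads are limited by depth.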
